A study of Mus musculus with 2 samples.

Results

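Collagens are built from 3 alpha chains wound into a helix, and each chain is the product of its own gene. The 41 genes whose symbols read Col, a number, the letter a and a number (Col1a1, Col4a1, Col15a1 and so on) were taken from the 30084 genes of a single-cell transcript table of fat tissue, and all 41 are described here. Collagen genes Col9a1, Col9a2, Col10a1 and Col21a1 were not analysed here. By class, the 41 were 11 fibrillar chains, 6 chains of the basement membrane network, 6 of beaded filaments, 7 fibril-associated, 4 membrane-spanning, 2 short-chain network, 2 multiplexin, 1 anchoring fibril and 2 other chains.

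The cells were 1 pool. Per the labels, male wild-type (WT) mice and mice lacking Mincle, a C-type lectin receptor of macrophages (Mincle KO), both of C57BL/6J background, were kept on high-fat food for 15 weeks. The stromal vascular fraction of epididymal white adipose tissue, which holds the cells other than adipocytes, was freed with Liberase, marked with hashtag antibodies (barcodes that record the suspension a cell came from), pooled and sequenced by TAS-Seq on BD Rhapsody beads. The age of the mice, the number of mice behind a hashtag and the genotype each hashtag stands for are not given in the sources used here, so no genotype comparison was made, hashtags were not treated as replicates, and no test or p-value is given.

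Fibrillar collagens (types I, II, III, V, XI, XXIV and XXVII) form the tensile fibrils of connective tissue. Type IV forms the sheet-like network of basement membranes, which in fat surrounds each adipocyte and lines each capillary, and type VI forms beaded filaments close to that membrane. Fibril-associated chains decorate fibrils, the multiplexins (types XV and XVIII) sit at basement membranes, and short-chain type VIII forms lattices in vessel walls. In adipose tissue, fibroblasts are known as the main makers of fibrillar collagen, and its accumulation with obesity is called adipose fibrosis.

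The table held 15192 cells after filtering, with a median of 34641.5 counts per cell (6596 to 473807), and the medians of the 4 hashtags, A0309, A0310, A0311 and A0312, ran from 33483 to 35489. Cells were grouped by clustering without any collagen chain, collagen-processing or collagen-receptor gene and named from marker genes, with the ending "-like". The groups used most were 3453 fibroblast-like, 213 mural-like, 965 endothelial-like, 7792 macrophage-like, 712 monocyte-like, 155 dendritic-cell-like and 218 T-cell-like cells, with median counts of 35261, 13782, 12932, 42131.5, 22939.5, 25010 and 9919.5. Within the fibroblast-like cells, 5 states were named: Dpp4-progenitor-like (371 cells), preadipocyte-like (715, from Cxcl14, Fabp4 and Lpl), inflammatory-fibroblast-like (647, from Agt, Rgs16, Il6 and Cxcl1), F3-fibroblast-like (78, from F3, Clec11a, Chrdl1, Fmo2, Gdf10 and Cygb) and activated-fibroblast-like (322, from Inhba, Ereg, Fosl1, Tnfrsf12a and Timp1), while 1320 cells stayed unnamed. Fibroblast-like cells carried few hashtag counts, with a median of 35 against 1288 in macrophage-like cells, and a rule asking for at least 10 tags with 75% from 1 hashtag kept 18.2% of them against 94.1% of macrophage-like cells. Values by hashtag in fibroblast-like and mural-like cells therefore rest on the authors' calls from few tags.

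Levels are counts of a gene per 1000000 counts of the group (CPM) and are not scaled by gene length, so a gene is compared between groups and not with other genes. For 6 chains low values are missing from the deposited table: the lowest nonzero count is 37 for Col3a1, 8 for Col6a2, 7 for Col4a1 and Col6a1 and 6 for Col4a2 and Col5a2, and it is 1 for each of the other 35, Col1a1 and Col1a2 included. In all, 68 genes of the table have no value from 1 to 4. For these 6 chains a count of 0 in a cell may stand for a value under that limit, and shares of cells are not comparable with those of other chains. As no test was possible, a difference was called by size: the log2 ratio of CPM + 1 had to reach 1 in size over the pooled cells and, with the same sign, separately within each hashtag that held 20 or more cells of the one group and of the other, and the gene had to reach 5 CPM in either group.

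Collagen chains took 3.83% of all counts in fibroblast-like cells, 1.86% in mural-like cells, 0.456% in endothelial-like cells and 0.0126% in the macrophage-like class. The 4 hashtags ran from 3.55% to 4.12% in fibroblast-like cells, from 1.499% to 2.33% in mural-like cells, from 0.446% to 0.464% in endothelial-like cells and from 0.0123% to 0.0133% in the macrophage-like class, so these ranges did not overlap. Within these groups, cells that passed the tag rule held 4.25% collagen counts and those that did not 3.72% among fibroblast-like cells, and 1.91% and 1.82% among mural-like cells. When only the cells passing the tag rule were clustered anew, the mural-like share was 0.815%, and the group so named then held sub-clusters of 59 and 51 cells led by endothelial genes such as Selp and Gja5. T-cell-like and NK-cell-like cells, 2 lymphoid classes that are not known as collagen makers, had shares of 0.0291% and 0.0293%, above the share of macrophage-like cells. With values 1 to 4 set to 0 in all genes, the share was 0.00574% in the macrophage-like and 0.0158% in the T-cell-like class. In bulk or summed counts, fewer cells with a transcript and less transcript per cell give the same sum, so the median share per cell was also taken: 2.95% in fibroblast-like, 1.63% in mural-like, 0.348% in endothelial-like and 0.00932% in macrophage-like ones.

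**Figure D1:**
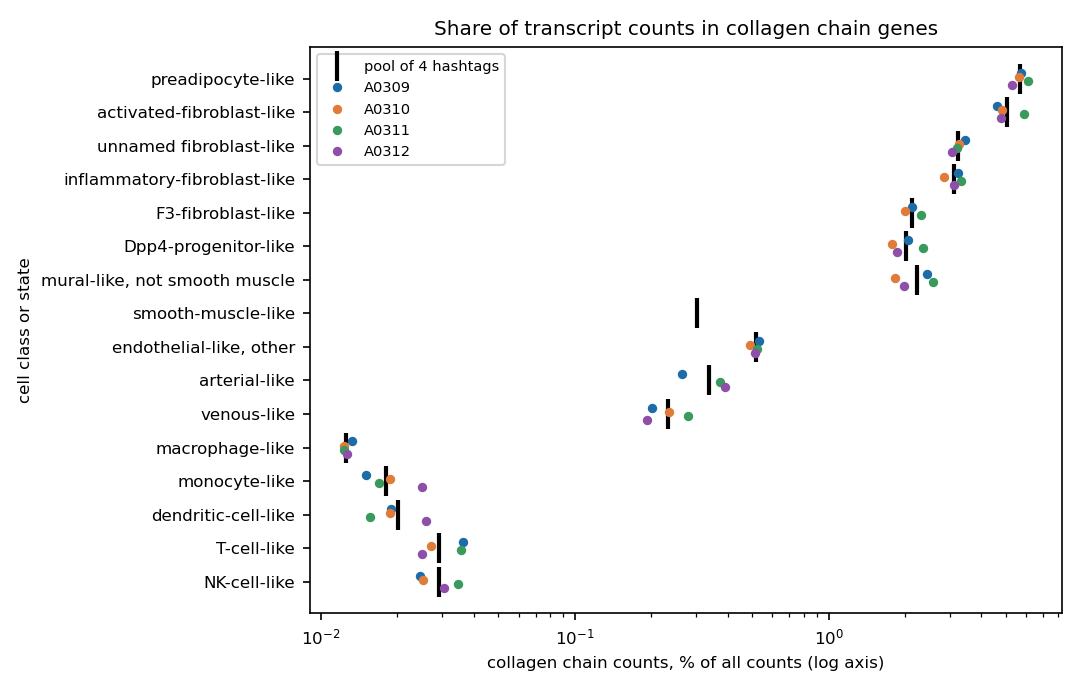
Collagen chain counts as a percent of all counts (x axis, log scale) in each cell class or state (y axis); black bars are the pool and coloured points the hashtags with at least 20 cells of the group. The preadipocyte-like pool lies highest at 5.69% and the macrophage-like pool lowest at 0.0126%.

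The make-up of the collagen counts differed between the stromal classes. Fibrillar chains were 67.2% of collagen counts in fibroblast-like cells, 35.2% in mural-like cells and 4.13% in endothelial-like cells. Basement membrane chains went the other way, at 10.0%, 27.9% and 81.5%. Beaded filament chains were 17.4%, 32.2% and 1.77%, and multiplexins were 2.54%, 3.78% and 9.74%. These are parts of the collagen counts of each class, and the levels of Col4a1 and Col4a2, given below, differed little between these classes. They add up genes not scaled by length, and 6 chains lack low counts. Col3a1, for example, was 0 in 2.64% of fibroblast-like and 53.1% of mural-like cells. What this does to the parts was not tested. Of the 41 chains, 27 reached 5 CPM in at least 1 of the 7 classes, and 19 of those 27 were highest in fibroblast-like cells, 6 in mural-like cells (Col4a1, Col4a2, Col4a4, Col6a3, Col18a1 and Col20a1; for Col4a1, Col4a2 and Col6a3 the log2 ratio to fibroblast-like cells was negative, at -0.61, -0.49 and -0.73, in the clustering of tag-rule cells), Col28a1 in endothelial-like cells and Col23a1 in dendritic-cell-like cells. The hashtag ranges of the highest and the next class were apart for 17 of the 27. The shares over all genes were not computed, so these counts are not read as particular to collagen chains. The other 14, Col2a1, Col4a3, Col6a4, Col7a1, Col9a3, Col11a1, Col11a2, Col13a1, Col17a1, Col19a1, Col22a1, Col24a1, Col25a1 and Col26a1, stayed under 5 CPM in all 7 classes.

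**Figure D2:**
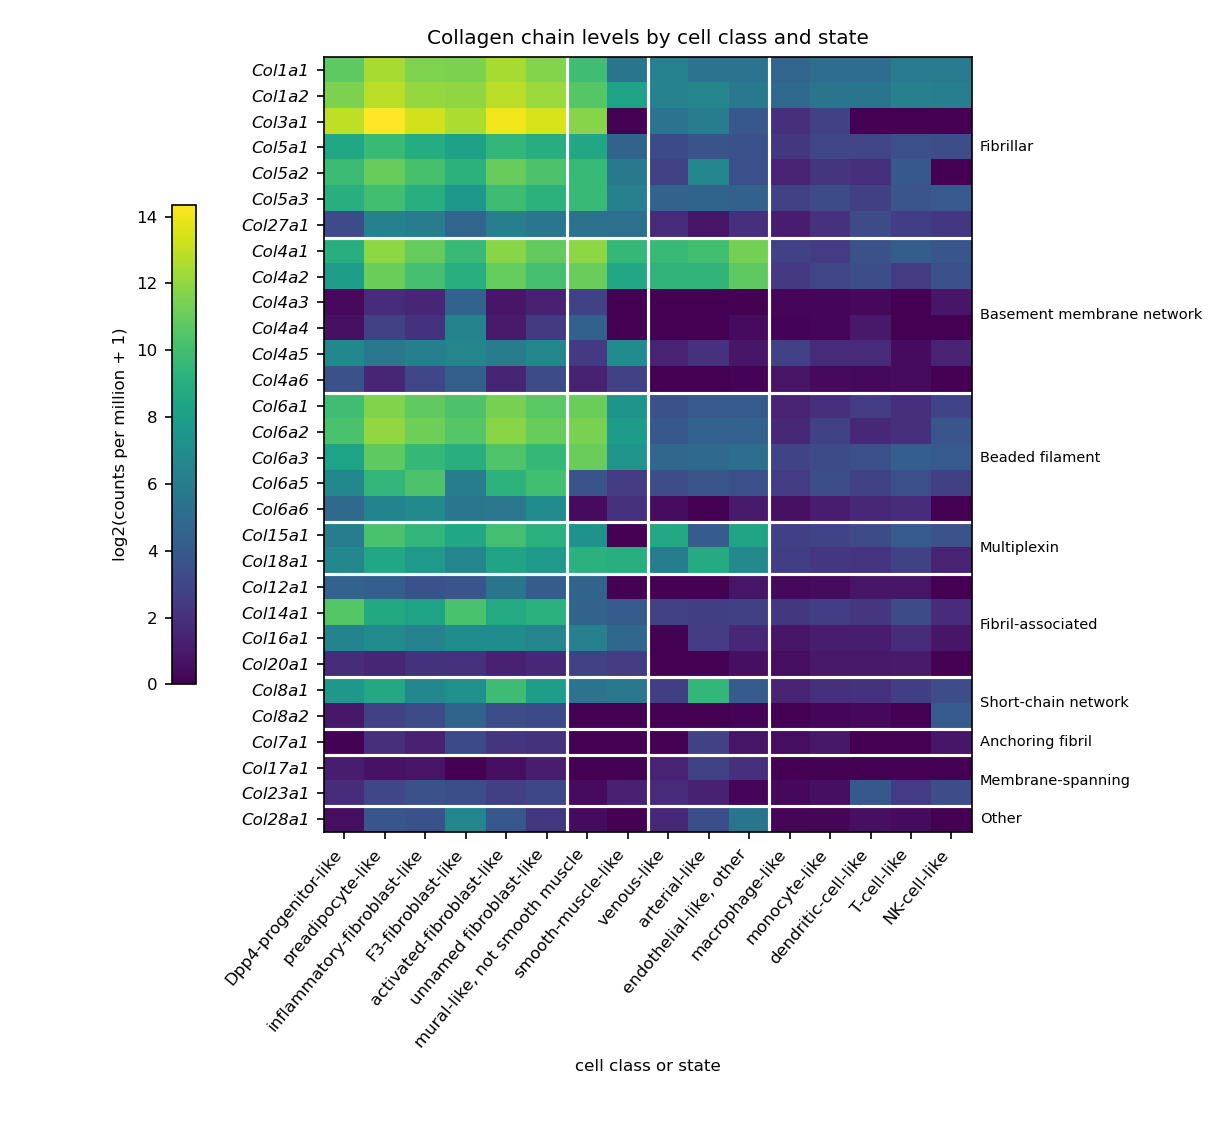
Level of each of the 30 chains that reached 5 CPM in any group of at least 50 cells (rows, by collagen class) in each cell class or state (columns), as log2 of CPM + 1. Col3a1 is the brightest row in the fibroblast-like states and dark in smooth-muscle-like and lymphoid groups, and Col4a1 and Col4a2 are bright across all stromal columns.

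Against macrophage-like cells, fibroblast-like cells were higher in all 26 chains that reached 5 CPM. Over the 12084 genes compared, 19.2% were higher and 14.2% lower, and the median log2 ratio was 6.81 for the chains and 0.03 for all genes. The smallest ratios among the 26 were those of Col4a6 (2.18), Col4a4 (2.56), Col23a1 (2.77) and Col8a2 (3.07), all under 10 CPM in fibroblast-like cells. The largest were Col3a1 (11.76), Col6a2 (9.72), Col6a1 (9.57), Col5a2 (9.15), Col4a1 (8.45), Col4a2 (8.02), Col1a2 (7.48), Col1a1 (7.24), Col6a5 (7.14) and Col6a3 (7.004). The first 6 of these are the 6 chains whose low counts are absent. For comparison, the limit of Col3a1 was put on Col1a1 by setting its values under 37 to 0. Col1a1 then went from 3911 to 3801 CPM in fibroblast-like and from 24.9 to 0.394 CPM in macrophage-like cells. The part of the absent counts in the ratios of the 6 chains themselves was not tested.

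Mural cells are the pericytes and smooth muscle cells around vessels. Endothelial sub-clusters of 109, 76 and 68 cells led by mural genes were left out as mixed. Their collagen shares were 0.884%, 0.456% and 0.424%, so the mural-like values describe only the 213 cells kept. The 30 smooth-muscle-like cells had a collagen share of 0.304%, with 18.4% of it fibrillar, against 2.23% and 35.8% in the other 183 mural-like cells, so values for the class as a whole rest mostly on the latter. Of 27 chains compared with fibroblast-like cells, none was higher and 11 were lower, beside 8.07% of 12535 genes higher and 6.05% lower, and the median log2 ratio was -1.09 for the chains and 0.37 for all genes. The 10 with the largest size were Col6a5 (-6.20), Col6a6 (-5.64), Col14a1 (-4.73), Col28a1 (-3.12), Col8a2 (-3.11), Col8a1 (-2.90), Col15a1 (-2.47), Col23a1 (-2.39), Col3a1 (-2.31) and Col1a1 (-2.28), followed by Col1a2 (-2.09). The 16 chains not called were Col4a1, Col4a2, Col4a4, Col4a5, Col4a6, Col5a1, Col5a2, Col5a3, Col6a1, Col6a2, Col6a3, Col12a1, Col16a1, Col18a1, Col20a1 and Col27a1. Leaving out 1 hashtag at a time gave 11 to 14 lower chains, but this also drops a condition of the rule, so the count can hardly fall. Col3a1 and the uncalled Col4a1, Col4a2, Col5a2, Col6a1 and Col6a2 lack low counts, whose part in the ratios was not tested.

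Endothelial-like cells differed from fibroblast-like cells in most chains. Of 26 chains, none was higher and 22 were lower, beside 13.3% of 12553 genes higher and 10.6% lower, with a median log2 ratio of -4.92 for the chains and 0.32 for all genes. The 10 largest were Col3a1 (-9.13), Col6a1 (-7.03), Col6a2 (-6.93), Col14a1 (-6.48), Col1a2 (-6.42), Col5a2 (-6.37), Col1a1 (-6.28), Col6a5 (-6.16), Col6a6 (-5.68) and Col5a1 (-5.62). The 4 not called were Col4a1 (-0.10), Col4a2 (0.15), Col18a1 (-0.95) and Col28a1 (1.75). Low counts are absent for Col3a1, Col6a1, Col6a2 and Col5a2 among the 10, and for Col4a1 and Col4a2. The part of those absent counts in the ratios was not tested. For comparison, with values under 37 set to 0, Col1a1 went from 49.3 to 5.97 CPM in endothelial-like cells. In fibroblast-like cells it went from 3911 to 3801 CPM. Against mural-like cells, 14 of 23 chains were lower in endothelial-like cells and only Col28a1 was higher, at a log2 ratio of 4.86, beside 8.38% of 12774 genes lower and 7.04% higher. The median log2 ratio was -3.67 for the chains and -0.05 for all genes.

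Among the fibrillar chains, type I (Col1a1 and Col1a2), type III (Col3a1) and type V (Col5a1, Col5a2 and Col5a3) form the mixed fibrils of soft connective tissue. Col1a1 stood at 3815, 3832, 4397 and 3578 CPM in fibroblast-like cells of A0309, A0310, A0311 and A0312, and at 712, 507, 1501 and 495 CPM in mural-like cells of the same hashtags. The groups did not overlap, and the mural-like value of A0311 was over 2 times each of the others. In endothelial-like cells Col1a1 was at 57.3, 46.2, 58.3 and 36.3 CPM, and in the macrophage-like class at 26.7, 24.1, 24.5 and 24.7 CPM.

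Col3a1, the single chain of type III, was at 13460, 13300, 14810 and 12460 CPM in fibroblast-like cells and at 2182, 2207, 4323 and 2187 CPM in mural-like cells. A value of at least 37 was present in 97.4% of fibroblast-like cells, 46.9% of mural-like cells and 5 of 965 endothelial-like cells. None of the 30 smooth-muscle-like cells had one, against 100 of the other 183 mural-like cells. The ratio of Col3a1 to Col1a1 counts was 3.46 over fibroblast-like cells, 4.54 in the Dpp4-progenitor-like and 2.12 in the F3-fibroblast-like state, with hashtag ranges of 3.37 to 3.53, 4.28 to 4.70 and 1.96 to 2.55. Col3a1 has no value under 37 while Col1a1 has, and what this does to the ratios was not tested, so the mural-like ratio, from 2.88 to 4.42 over hashtags, is not compared.

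The type I pair moved together: the ratio of Col1a1 to Col1a2 counts lay between 0.594 (Dpp4-progenitor-like) and 0.767 (activated-fibroblast-like) over the 5 named states and at 0.631 in mural-like cells, while the Col1a1 level itself varied 3.27-fold between states. Across the 15 groups of at least 50 cells, the level of Col1a1 was most like that of Col1a2 (Spearman's rho 0.971). Over the 3453 fibroblast-like cells the rho was 0.886, here and below from counts divided by the total of each cell. Such values describe groups and cells of 1 library, which are not replicates.

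Type V did not keep fixed chain ratios. The ratio of Col5a3 to Col5a1 counts was 1.25 in fibroblast-like cells (counting interval 1.24 to 1.26), 2.20 in mural-like cells (2.05 to 2.37) and 0.674 in F3-fibroblast-like cells (0.606 to 0.750). Over hashtags with enough cells it ran more widely, from 1.14 to 1.34, from 1.83 to 2.67 and from 0.504 to 0.933. Col5a3 accordingly stood at nearly the same level in mural-like cells (691 CPM) and fibroblast-like cells (719 CPM), whereas Col5a1 was at 313.7 and 574 CPM and Col5a2 at 698 and 1488 CPM. Col27a1, a chain best known from cartilage, was at 55.5 CPM in fibroblast-like, 39.4 in mural-like and 2.70 in endothelial-like cells. The remaining fibrillar chains Col2a1, Col11a1, Col11a2 and Col24a1, which are known from cartilage and bone, reached at most 1.75 CPM in any of the 7 classes.

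Type VI beaded filaments are assembled from Col6a1, Col6a2 and a further chain that can be Col6a3 or 1 of the related chains Col6a4, Col6a5 and Col6a6. Col6a1 and Col6a2 stood at 2078 and 2662 CPM in fibroblast-like cells and at 1855 and 2325 CPM in mural-like cells. Their count ratio was 0.781 and 0.798 in these classes, with counting intervals of 0.777 to 0.785 and 0.772 to 0.825.

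Unlike Col6a1 and Col6a2, Col6a3 had a higher level in mural-like than in fibroblast-like cells. It was at 983, 1004, 1056 and 925 CPM in fibroblast-like cells of the 4 hashtags and at 2269, 1526, 2072 and 1368 CPM in mural-like cells, so that all 4 mural-like values lay above all 4 fibroblast-like values. The log2 ratio of 0.85 did not pass the rule of size. The ratio of Col6a3 to Col6a1 counts was 0.968 in mural-like cells, from 0.931 to 1.04 over hashtags, 0.478 in fibroblast-like cells and 0.328 in the Dpp4-progenitor-like state. Col6a1 has no value under 7 and Col6a2 none under 8, while Col6a3 has values from 1. The Col6a1 value was 0 in 18.8% of the shallower mural-like cells and in 3.13% of fibroblast-like cells. What the absent low counts do to the ratios and to the order of the classes was not tested.

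Col6a5 and Col6a6 marked fibroblast-like cells. Col6a5 stood at 847, 849, 775 and 838 CPM in the 4 hashtags, with a count in 82.0% of the cells, and at 10.3 CPM in mural-like and 10.6 CPM in endothelial-like cells. Per cell these are 0.164 and 0.171 counts, beside 0.133 in T-cell-like cells, and the shares of cells with a count were 8.45%, 9.22% and 9.17% in these 3 classes. Thinned to 10000 counts per cell, with shallower cells left out, they were 7.23%, 7.14% and 7.62%, against 73.4% in fibroblast-like cells. Col6a6 was at 92.9 CPM in fibroblast-like cells and under 1 CPM in mural-like and endothelial-like cells. Col6a4, at 2.57 CPM in fibroblast-like cells, was not detected in mural-like, endothelial-like or T-cell-like cells, where 3 counts would be 0.882, 0.193 and 1.09 CPM. Col6a6, Col6a5 and Col6a4 lie next to each other on chromosome 9 of GRCm38, on the same strand, with 27917 bases between the first pair and 28810 bases between the second.

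The ratio of Col6a5 to Col6a6 counts was 8.91 over all fibroblast-like cells, 12.4 in the activated-fibroblast-like, 3.4 in the Dpp4-progenitor-like and 1.31 in the F3-fibroblast-like state. Both genes had a count in 1737 of the 3453 fibroblast-like cells, Col6a5 alone in 1094 and Col6a6 alone in 142.

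The type IV chains come from 3 pairs of genes that lie head to head, each pair reading outwards from a shared start region. The main network of all basement membranes is made of Col4a1 and Col4a2. Networks of Col4a3, Col4a4 and Col4a5 or of Col4a5 and Col4a6 are known from the kidney glomerulus and from smooth muscle and skin. In GRCm38, with GENCODE M21 annotation, Col4a1 runs on the minus strand of chromosome 8 from 11198423 to 11312826 and Col4a2 on the plus strand from 11312805 to 11449287, so that the first 22 bases of the genes overlap. On chromosome 1, Col4a4 (82448423 to 82586849, minus strand) and Col4a3 (82586921 to 82722059, plus strand) have 71 bases between them. On the X chromosome, Col4a6 (141165403 to 141474076, minus strand) and Col4a5 (141475385 to 141689234, plus strand) have 1308 bases between them.

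The start regions of these pairs are printed because the members of each pair are compared below. Each window runs from 250 bases before to 50 bases after a start, 5′ to 3′ on the strand of its gene, from RefSeq (GRCm38.p6). It is chr8:11312777-11313076 on the minus strand for Col4a1, chr8:11312555-11312854 on the plus strand for Col4a2, chr1:82586800-82587099 on the minus strand for Col4a4, chrX:141474027-141474326 on the minus strand for Col4a6 and chrX:141475169-141475468 on the plus strand for Col4a5. In the Col4a1 and Col4a2 windows capitals mark the 78 bases that both windows hold, each as the reverse complement of the other. In the Col4a4 window capitals mark the 71 bases between the starts of Col4a4 and Col4a3, and in the X chromosome windows they mark matches to 2 motifs described after the sequences.
Col4a1: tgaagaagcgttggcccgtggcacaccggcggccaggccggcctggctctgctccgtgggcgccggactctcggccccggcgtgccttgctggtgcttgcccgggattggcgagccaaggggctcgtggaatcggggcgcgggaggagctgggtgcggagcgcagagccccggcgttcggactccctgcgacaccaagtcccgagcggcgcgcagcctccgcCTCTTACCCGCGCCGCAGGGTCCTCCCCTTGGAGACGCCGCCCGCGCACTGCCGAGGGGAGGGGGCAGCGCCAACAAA
Col4a2: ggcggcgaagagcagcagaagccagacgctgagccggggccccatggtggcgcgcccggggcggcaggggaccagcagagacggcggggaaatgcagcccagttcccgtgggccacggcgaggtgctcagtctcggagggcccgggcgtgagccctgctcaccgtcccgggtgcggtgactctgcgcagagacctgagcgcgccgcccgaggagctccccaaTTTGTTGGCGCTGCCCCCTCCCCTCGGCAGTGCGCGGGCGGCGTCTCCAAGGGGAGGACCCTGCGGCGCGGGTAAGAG
Col4a4: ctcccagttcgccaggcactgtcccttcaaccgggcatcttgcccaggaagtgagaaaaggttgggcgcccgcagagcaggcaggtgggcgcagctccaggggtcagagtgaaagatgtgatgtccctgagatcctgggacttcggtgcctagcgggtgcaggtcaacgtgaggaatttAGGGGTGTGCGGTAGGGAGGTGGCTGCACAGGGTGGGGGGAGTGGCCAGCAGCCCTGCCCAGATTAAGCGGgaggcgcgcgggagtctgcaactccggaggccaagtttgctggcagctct
Col4a6: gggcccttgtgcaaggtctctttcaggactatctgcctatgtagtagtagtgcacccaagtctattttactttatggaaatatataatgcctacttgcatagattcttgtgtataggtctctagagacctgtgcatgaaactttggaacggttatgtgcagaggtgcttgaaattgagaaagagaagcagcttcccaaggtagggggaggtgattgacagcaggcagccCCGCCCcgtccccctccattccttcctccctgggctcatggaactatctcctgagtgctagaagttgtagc
Col4a5: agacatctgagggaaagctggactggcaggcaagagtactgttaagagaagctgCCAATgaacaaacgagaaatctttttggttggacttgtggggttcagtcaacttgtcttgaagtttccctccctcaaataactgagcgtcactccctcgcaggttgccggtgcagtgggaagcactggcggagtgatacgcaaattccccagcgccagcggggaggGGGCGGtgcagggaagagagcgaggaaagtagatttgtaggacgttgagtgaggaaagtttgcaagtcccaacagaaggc

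The windows of the first pair are rich in G and C, at 74.0% for Col4a1 and 73.7% for Col4a2, against 63.3% for Col4a4, 48.3% for Col4a6, 52.7% for Col4a5 and a median of 52.7% over all 32851 windows. The motif CCAAT, read on both strands, was in the windows of Col4a1, Col4a2 and Col4a5 and in 37.4% of all windows. The motif GGGCGG, on both strands, was in the windows of Col4a1, Col4a2, Col4a5 and Col4a6 and in 35.7% of all windows, and TATAAA, on both strands, was in none of the 5 and in 13.6% of all windows. Neither of the first 2 was in the Col4a4 window. In all, 32 of the 41 chain genes had a window, of which 12 held CCAAT, 21 held GGGCGG and 4 held TATAAA. These matches describe letters in a window and not sites that are in use.

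Col4a1 and Col4a2 differed little between the 3 stromal classes as wholes and more within them. Col4a1 stood at 2366, 2465, 2459 and 2235 CPM in fibroblast-like cells, at 3734, 3047, 3731 and 2754 CPM in mural-like cells and at 2237, 2117, 2187 and 2311 CPM in endothelial-like cells. The mural-like values lay above all others, by less than the rule asks (log2 ratio 0.47 over fibroblast-like cells), and the other 2 classes overlapped. Col4a2 was at 1352, 1833 and 1497 CPM in the 3 classes. Both chains lack low counts, and the part of the absent counts in these levels was not tested. The Col4a1 value was 0 in 5.62% of fibroblast-like, 7.98% of mural-like and 13.9% of endothelial-like cells. Within the mural-like class Col4a1 was at 749.6 CPM in smooth-muscle-like and 3900.0 CPM in the other cells. Within the endothelial-like class it was at 854 CPM in venous-like, 1028 CPM in arterial-like and 2636 CPM in the other cells. The ratio of Col4a1 to Col4a2 counts was 1.77 in fibroblast-like, 1.80 in mural-like and 1.48 in endothelial-like cells, and over hashtags it ran from 1.74 to 1.80, from 1.67 to 1.996 and from 1.39 to 1.60. It was 1.26 in venous-like cells, where hashtags ran from 0.983 to 1.55 and overlapped the endothelial-like class, and 1.95 in the Dpp4-progenitor-like state (1.87 to 2.08). Over the 15 groups the rho of the pair was 0.968, and over fibroblast-like cells it was 0.847.

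Col4a3 and Col4a4 were rare, and both were highest in the F3-fibroblast-like state. Col4a4 was at 118, 86.1 and 74.0 CPM in the F3-fibroblast-like cells of A0309, A0310 and A0311 (the 14 cells of A0312 were too few to print) and at 3.71 CPM in the other fibroblast-like cells. Col4a3 was at 13.8, 34.9 and 21.8 CPM in these cells against 1.58 CPM. Of the 78 cells, 48 had a Col4a4 count, 22 a Col4a3 count and 15 both. In mural-like cells other than smooth-muscle-like ones, Col4a4 was at 20.7 CPM (18 of 183 cells) and Col4a3 at 5.82 CPM (6 of 183 cells), with no cell holding both. Among 965 endothelial-like cells none had a Col4a3 count, which with 3 counts as the limit allows at most 0.193 CPM, and 3 had a Col4a4 count. Over the 15 groups the rho of the pair was 0.872, and over fibroblast-like cells 0.163, where most cells had a count of neither gene.

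Col4a5 was at 79.8 CPM in fibroblast-like cells, from 73.2 to 86.2 CPM over hashtags, and at 1.16 CPM in endothelial-like cells. Within mural-like cells it stood apart in smooth-muscle-like cells, at 120 CPM (counting interval 94.7 to 149) with a count in 20 of 30 cells, against 4.36 CPM in the others with 4 of 183 cells. Its neighbour Col4a6 was at 6.52 CPM in fibroblast-like cells, and 228 of the 272 cells with a Col4a6 count also had a Col4a5 count. In the small group of 17 mesothelial-like cells Col4a5 was at 102 CPM and Col4a6 at 67.3 CPM.

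**Figure D3:**
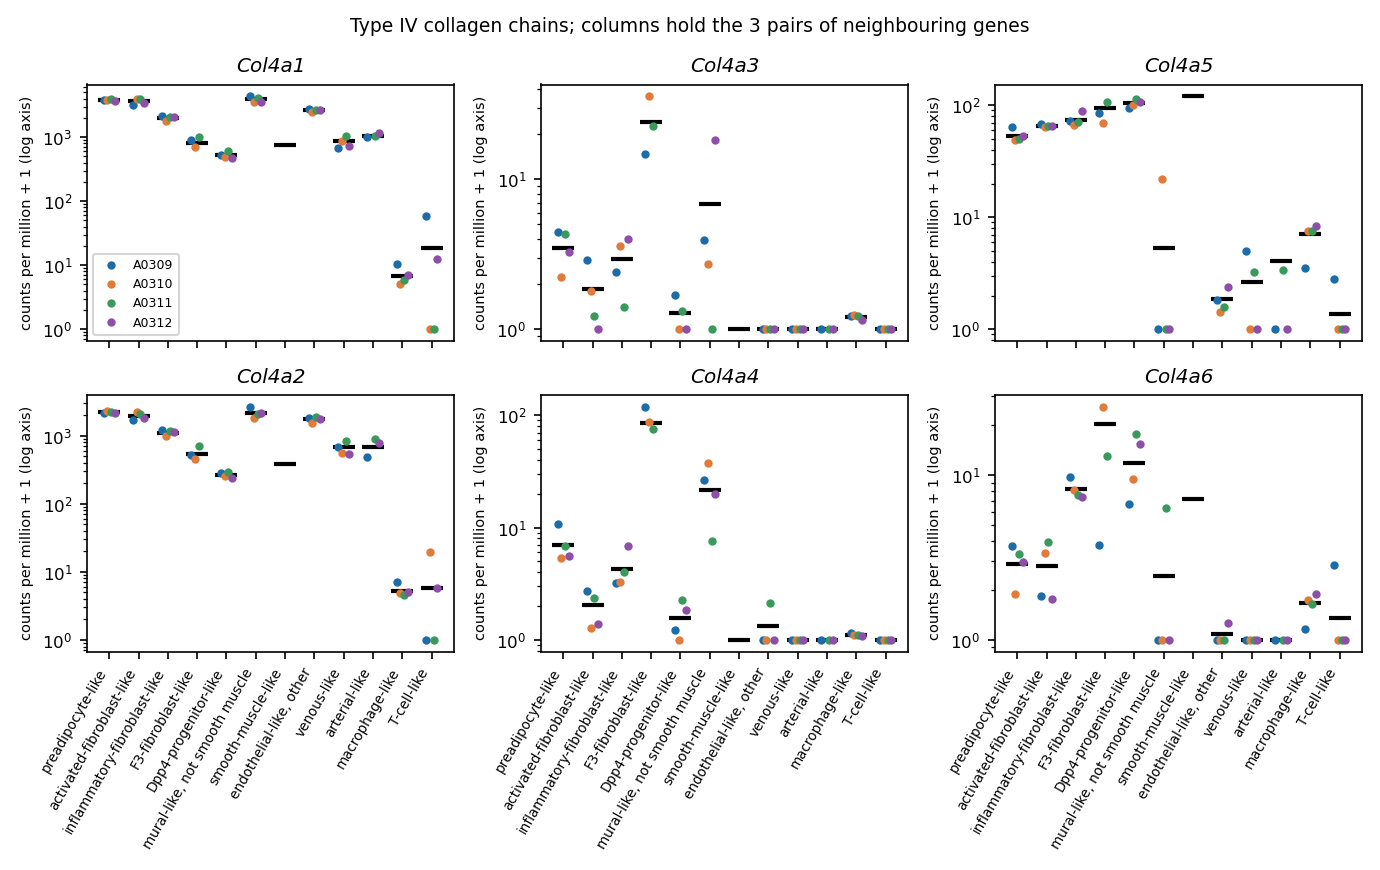
Levels of the 6 type IV chains (y axis, CPM + 1, log scale, each panel with its own range) in the cell classes and states (x axis); bars are the pool, points the hashtags with at least 20 cells, and each column of panels holds a pair of neighbouring genes. Col4a1 and Col4a2 follow the same course over the groups, Col4a3 and Col4a4 peak in F3-fibroblast-like cells, and Col4a5 is high in fibroblast-like and smooth-muscle-like cells.

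The multiplexins Col15a1 and Col18a1, whose ends yield the fragments restin and endostatin, were divided between cell types. Col15a1 was at 664, 824, 727 and 652 CPM in fibroblast-like cells, at 278, 336, 340 and 302.8 CPM in endothelial-like cells and at 132, 91.1, 199 and 95.5 CPM in mural-like cells, and the 3 sets did not overlap. Col18a1 had another order, with 565, 455, 846 and 428 CPM in mural-like cells, 212, 308.4, 243 and 226 CPM in fibroblast-like cells and 101, 131, 157 and 120 CPM in endothelial-like cells, again without overlap. The ratio of Col18a1 to Col15a1 counts was 4.41 in mural-like, 0.410 in endothelial-like and 0.346 in fibroblast-like cells.

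The same pair divided the endothelium. Arterial-like cells (89) held 16.8 CPM of Col15a1 and 459 CPM of Col18a1, whereas venous-like cells (150) held 400 and 63.6 CPM. Smooth-muscle-like cells had no Col15a1 count in 30 cells, where 3 counts would be 4.61 CPM, and 518 CPM of Col18a1. The rho of the 2 genes was 0.671 over the 15 groups, 0.331 over fibroblast-like cells and 0.006 over the 10 stromal groups alone.

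Type VIII, the short-chain network collagen of vessel walls and of Descemet's membrane in the eye, was split between fibroblasts and arteries. Col8a1 stood at 731 CPM in arterial-like cells, with a count in 75.3% of them, at 5.33 CPM in venous-like and at 17.2 CPM in the other endothelial-like cells. In the hashtags with at least 20 arterial-like cells it was at 379, 754 and 938 CPM, all above every venous-like value (1.98 to 9.07 CPM). A sub-cluster of 68 endothelial cells led by mural genes such as Acta2 and Myh11, left out of the classes as mixed, held Col8a1 at 455 CPM. Col8a2 was at 7.61 CPM in fibroblast-like cells and at 0 in mural-like cells, where 3 counts as the limit allow 0.882 CPM.

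Of the fibril-associated chains, Col14a1, which binds fibrils of type I collagen, was at 654, 507, 630 and 592 CPM in fibroblast-like cells and at 0, 33.8, 39.9 and 15.4 CPM in mural-like cells. Col16a1 (100 and 65.9 CPM) and Col12a1 (20.5 and 18.8 CPM) differed less between the 2 classes, and Col12a1 in mural-like cells went from a log2 ratio of -3.57 in A0309 to 1.05 in A0311. Col20a1 was at 5.88 CPM in mural-like and 2.22 CPM in fibroblast-like cells. Col9a3, Col19a1 and Col22a1 stayed at or below 2.90 CPM.

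Of the 7 classes, Col28a1 was highest in endothelial-like and Col23a1 in dendritic-cell-like cells. Col28a1, a chain of the von Willebrand factor A domain family known from peripheral nerve, was at 44.0, 33.6, 24.7 and 45.6 CPM in endothelial-like cells and at 10.2 CPM in fibroblast-like cells, and a single mural-like cell had a count. Within the endothelium it was highest in a sub-cluster led by Pgf and Apln (153 cells, 71.3 CPM, 32.7% of cells) and in a cycling sub-cluster (34 cells, 68.9 CPM), and at 2.05 CPM in venous-like cells. The same sub-clusters had collagen shares of 0.744% and 0.725%, against 0.233% in venous-like cells. Col23a1, a membrane-spanning collagen, was at 14.5 CPM in dendritic-cell-like cells, with 8.27, 4.49, 18.4 and 30.1 CPM over the hashtags and a count in 23 of 155 cells, and at 7.34 CPM in fibroblast-like cells. Thinned to 10000 counts, 11.1% of dendritic-cell-like and 4.74% of fibroblast-like cells had a count, and 0.952% of T-cell-like cells. In 14 lymphatic-endothelial-like cells it was at 202 CPM, with a count in 7. The other membrane-spanning chains, Col13a1, Col17a1 and Col25a1, the anchoring fibril chain Col7a1 and Col26a1 stayed below 5 CPM in all 7 classes.

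The fibroblast states differed in how much collagen they held as well as in which chains. Collagen chains took 5.69% of counts in preadipocyte-like cells (5.27% to 6.09% over hashtags), 5.05% in activated-fibroblast-like cells (4.61% to 5.86%), 3.11% in inflammatory-fibroblast-like cells (2.86% to 3.33%), 2.13% in F3-fibroblast-like cells (1.995% to 2.31%) and 2.01% in Dpp4-progenitor-like cells (1.78% to 2.35%). The first 2 overlapped each other, as did the last 2, and neither pair overlapped the inflammatory-fibroblast-like values. An unnamed fibroblast-like sub-cluster of 150 shallow cells (median 11406.5 counts), with Malat1 among its leading genes, had a share of 7.51%, and it counted among the other cells in each comparison of states.

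Dpp4-progenitor-like cells, which express Dpp4 and Pi16 and are regarded as stem-like cells of adipose stroma, differed in the most chains. Of 26 chains, 12 were lower than in the other fibroblast-like cells and 1 was higher, beside 3.56% of 11482 genes lower and 2.09% higher, and the median log2 ratio was -1.24 for the chains and 0.02 for all genes. Col14a1 was the higher one (1508 against 480 CPM, log2 ratio 1.65), with 1473, 1543, 1594 and 1441 CPM in the 4 hashtags and a count in each of the 371 cells. The 10 with the largest fall were Col15a1 (-3.64), Col6a5 (-3.15), Col28a1 (-3.13), Col27a1 (-2.70), Col4a2 (-2.47), Col4a1 (-2.33), Col8a2 (-2.30), Col4a4 (-2.19), Col6a3 (-1.74) and Col6a6 (-1.71), before Col18a1 (-1.41) and Col1a1 (-1.24).

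Both multiplexins and 3 of 5 basement membrane chains were thus lower in this state. Col15a1 was at 58.6, 54.7, 84.8 and 59.6 CPM in its hashtags, against 804 CPM in the other fibroblast-like cells. Col4a1 was at 528, 489, 611 and 463 CPM against 2619 CPM. Col4a5 (103 against 76.9 CPM) and Col4a6 (10.9 against 5.98 CPM) had log2 ratios of 0.42 and 0.77 and did not pass. Col3a1 (-0.83), Col1a2 (-0.95), Col5a1 (-0.66), Col5a2 (-0.78), Col5a3 (-0.47), Col6a1 (-1.17) and Col6a2 (-1.23) had negative ratios that did not pass, and so did Col8a1 (-0.85), Col16a1 (-0.20) and Col23a1 (-1.31), while Col12a1 was at 0.08. The ratio of Col8a1 was 0.28 with coarser clustering (resolution 0.5).

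Preadipocyte-like cells, committed precursors of adipocytes, had the highest level, among the 5 states, of both type I chains, Col3a1, the 3 type V chains, Col6a1 to Col6a3, Col4a1, Col4a2 and both multiplexins. Of 26 chains 1 was higher, Col6a3 (1740 against 779 CPM, log2 ratio 1.16), and none lower, beside 0.238% of 11366 genes higher and 1.43% lower. The median log2 ratio was 0.61 for the chains and 3.65e-05 for all genes, and these did not pass: Col4a2 at 1.02, Col15a1 at 1.02, Col4a1 at 0.94, Col18a1 at 0.92, Col6a2 at 0.91, Col3a1 at 0.88, Col6a1 at 0.85, Col1a1 at 0.77, Col5a3 at 0.75, Col5a1 at 0.74, Col1a2 at 0.67, Col5a2 at 0.67 and Col27a1 at 0.56. Col4a2 missed the threshold in A0309 and A0311 and Col15a1 in A0311. Col4a6 (-1.61), Col4a5 (-0.73) and Col14a1 (-0.64) had negative ratios in each of the 4 hashtags. The call of Col6a3 was lost under the tag rule and in finer clustering (resolution 2.0), each of which gave 2 other chains, and coarser clustering (0.5) gave 5 calls.

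In inflammatory-fibroblast-like cells 1 of 26 chains was lower and none higher, beside 0.67% of 11339 genes lower and 0.423% higher, with medians of -0.32 for the chains and -0.09 for all genes. Col8a1 was the lower one, at 84.5, 124, 117 and 76.4 CPM in the hashtags against 391.7 CPM in the other fibroblast-like cells (log2 ratio -1.93). Col6a5 was at 1294 against 731 CPM, a log2 ratio of 0.82 with all 4 hashtags above 0, and the cells of this state had the highest Col6a5 level and share of cells with a count (94.0%) of the named states. Col14a1 was at 319 against 650 CPM, with a log2 ratio of -1.02 that passed in 2 of 4 hashtags.

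F3-fibroblast-like cells, named here from F3 and Clec11a, resemble by those markers a state of adipose stroma that is known to restrain adipogenesis. Of 28 chains 4 were higher and 5 lower, beside 1.77% of 11622 genes higher and 2.09% lower, with medians of -0.76 for the chains and -0.06 for all genes. The higher ones were Col4a4 (4.19), Col28a1 (3.398), Col4a3 (3.21) and Col8a2 (1.56), all rare chains. The lower ones were Col6a5 (-3.69), Col5a3 (-1.85), Col4a1 (-1.57), Col5a2 (-1.36) and Col3a1 (-1.16). Col28a1 was at 99.6, 106 and 79.5 CPM in the 3 hashtags with enough cells, against 8.25 CPM in the other fibroblast-like cells, and 30 of 78 cells had a count. Col14a1 was at 1184 against 580 CPM, a log2 ratio of 1.03 that missed the rule in 2 hashtags. Coarser clustering (resolution 0.5) gave 16 calls, with all 9 kept.

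Activated-fibroblast-like cells carry Inhba, Timp1 and other genes of wound-type activation. Of 26 chains 1 was higher, Col8a1, and 2 were lower, Col4a4 (-1.81) and Col4a6 (-1.54), beside 0.678% of 11361 genes higher and 0.995% lower, with medians of 0.46 for the chains and -0.03 for all genes. The 2 lower calls were lost with a pseudocount of 5 CPM. Col8a1 was at 862, 725, 1306 and 890 CPM against 258 CPM in the other fibroblast-like cells (log2 ratio 1.89). Col12a1, a chain of tendon and of tissue under tension, was at 46.3 against 17.0 CPM, with a log2 ratio of 1.40 that passed in 3 of 4 hashtags. Each of the fibrillar chains measured had a log2 ratio between 0.35 (Col3a1) and 0.61 (Col1a1), but in finer clustering (resolution 2.0) Col1a1 was at -0.27, Col1a2 at -0.14 and Col5a1 at -0.13. An unnamed fibroblast-like sub-cluster of 289 cells, led by Scg3 and Pthlh, also had a high Col8a1 level of 720 CPM and the highest Col4a5 level of the fibroblast-like sub-clusters, at 125 CPM.

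**Figure D4:**
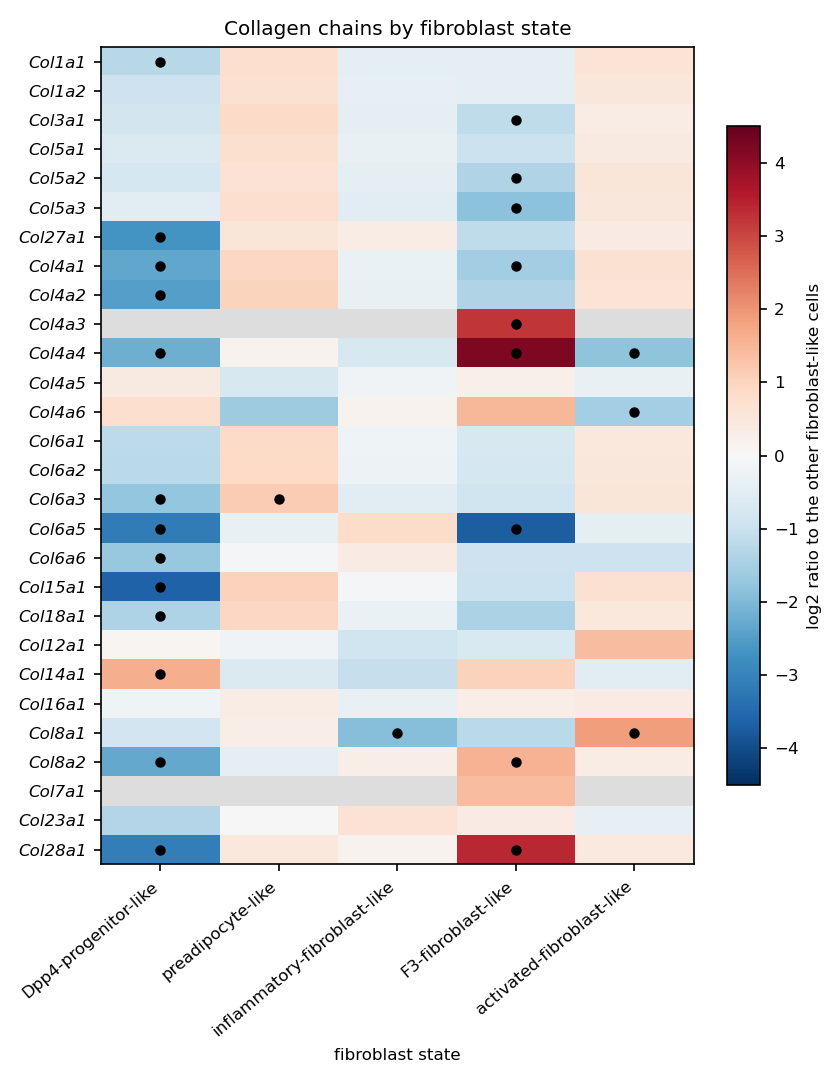
Log2 ratio of each chain (rows) in each fibroblast state (columns) to the other fibroblast-like cells, from blue (lower) to red (higher); black dots mark ratios that passed the rule of size and grey cells were below 5 CPM. Dpp4-progenitor-like and F3-fibroblast-like columns hold most dots, and the preadipocyte-like column is red for nearly all abundant chains with a dot at Col6a3 alone.

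Myeloid cells held few collagen counts, and the question is which of them exceed the level of cells that are not known to make collagen. Col1a1 gave 1.25 counts per macrophage-like cell, 1.01 per monocyte-like cell, 0.865 per dendritic-cell-like cell, 0.711 per T-cell-like cell and 0.631 per NK-cell-like cell, against 146 per fibroblast-like cell. The share of cells with a Col1a1 count was 54.9% in macrophage-like and 35.3% in T-cell-like cells, and after thinning to 10000 counts per cell it was 20.8% and 28.6%. With values under 37 set to 0, the limit that holds for Col3a1, Col1a1 fell from 24.9 to 0.394 CPM in macrophage-like cells, from 56.1 to 0 CPM in T-cell-like cells, from 803 to 345 CPM in mural-like cells and from 3911 to 3801 CPM in fibroblast-like cells. Of macrophage-like cells, 17 (0.218%) had a Col3a1 value.

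Compared with T-cell-like cells, 3 of 14 chains (Col1a1, Col1a2 and Col6a3) were lower in macrophage-like cells and none higher, beside 11.4% of 12197 genes lower and 8.81% higher, with medians of -1.23 for the chains and -0.43 for all genes. The log2 ratios were -1.14, -1.34 and -1.36, and with a pseudocount of 5 CPM, a mean over cells, or values 1 to 4 set to 0, Col1a2 alone kept its call. The 11 chains not called were Col4a1 (-1.45), Col4a5 (2.38), Col5a1 (-1.21), Col5a2 (-2.56), Col5a3 (-1.01), Col6a5 (-0.97), Col8a1 (-1.24), Col14a1 (-0.97), Col15a1 (-1.41), Col18a1 (-0.13) and Col27a1 (-1.56). With values 1 to 4 set to 0, Col6a5 was at 1.03 and Col27a1 at 0.22. A macrophage-like cell holds more counts in all, and per cell the macrophage-like level was 1.35 to 1.85 times the T-cell-like level for the 8 chains with at least 20 T-cell-like counts and low values present, among them Col15a1 at 1.35 and Col6a5 at 1.85.

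The range of 1.35 to 1.85 above covers only chains with at least 20 T-cell-like counts, which leaves out others such as Col18a1. Col4a5 was left out by that filter too, and its ratio lay above the range. It gave 0.306 counts per macrophage-like cell (0.134, 0.342, 0.316 and 0.358 in the 4 hashtags) against 0.00459 per T-cell-like cell, where 1 count was found in 218 cells. This is 10.3% of the fibroblast-like level per cell. Of macrophage-like cells 11.4% had a Col4a5 count, and 4.64% after thinning, against 0 of 105 T-cell-like cells after thinning. The pooled log2 ratio of 2.38 did not pass the rule because A0309 was at 0.31 while the other 3 hashtags lay between 2.91 and 3.06, and without A0309 it passed. In A0309 the macrophage-like level was 2.51 CPM, against 6.498 to 7.35 CPM in the other 3, and the single T-cell-like count was also in A0309.

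Macrophage-like sub-clusters differed in Col4a5. It was at 10.8 CPM in a sub-cluster led by Pgm5, Sox4 and Fgf13 (1101 cells, 19.0% with a count), at 8.45 CPM in a sub-cluster led by Ung, Hells and Uhrf1 (489 cells, 19.2%) and at 7.14 and 6.99 CPM in 2 cycling sub-clusters. It was at 2.99 CPM in a sub-cluster led by Gm4610, Ear2 and Il1rn, at 3.14 CPM in the 836 cells led by Fbxo32 and Ms4a4a and at 2.25 CPM in monocyte-like cells. Its X chromosome neighbour Col4a6 was at 0.664 CPM in macrophage-like cells, and 48 cells held both.

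**Figure D5:**
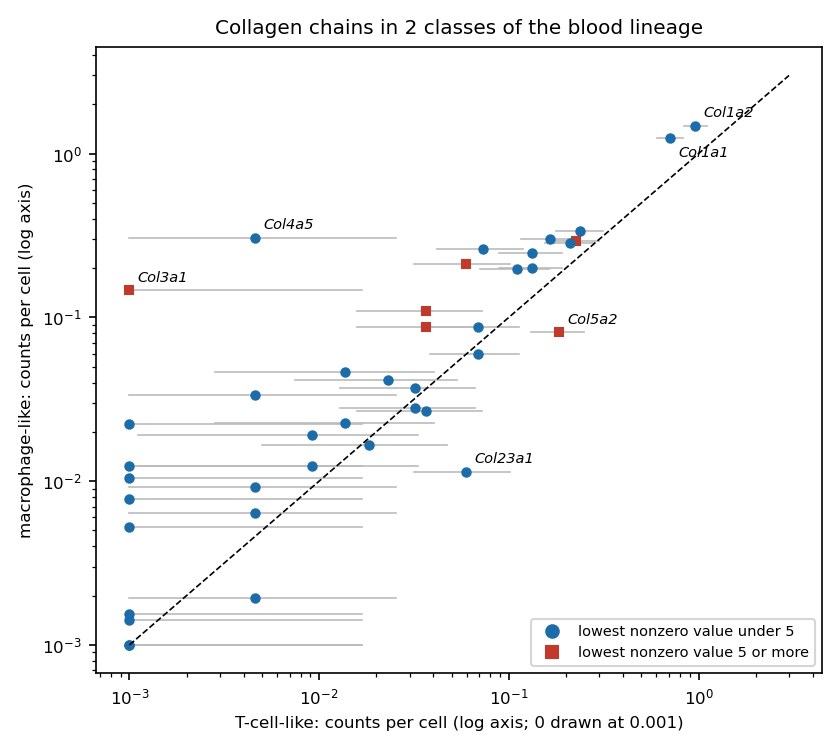
Counts per cell of each chain in T-cell-like cells (x axis, log scale, 0 drawn at 0.001) and macrophage-like cells (y axis, log scale), with exact Poisson 95% intervals and a dashed line of equal values; squares are chains without low values. Most chains with many counts lie close above the line, with Col1a1 and Col1a2 at the top right, and Col4a5 lies far to the left at 0.00459 and 0.306 counts per cell.

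The genes that modify, cleave and cross-link collagen were followed with a list of 31 genes, all of them in the table. For 1 of the 31 the lowest nonzero count is 5 or more, and the part of its absent low counts in its ratios was not tested. Between fibroblast-like and macrophage-like cells, 23 of 26 were higher and none lower (all genes 19.2% and 14.2%), led by Serpinh1, the collagen chaperone HSP47 (2026 against 3.05 CPM, log2 ratio 8.97), the lysyl oxidase Loxl1 (7.27) and the proteinase enhancer Pcolce2 (7.18), and the galactosyltransferase gene Colgalt1 was at 237 against 443 CPM (-0.90). Against fibroblast-like cells, mural-like cells had 1 of 27 higher, the prolyl hydroxylase P3h2 that is known to act on type IV collagen (4.92), and 6 lower (all genes 8.07% and 6.05%), led by Pcolce2 (-6.79), Loxl1 (-5.38) and Lox (-2.86), with Serpinh1 at -0.73. In endothelial-like cells 2 of 28 were higher than in fibroblast-like cells, Tll1 (2.98) and P3h2 (1.74), and 20 were lower (all genes 13.3% and 10.6%), led by Loxl1 (-6.62), Pcolce2 (-6.50) and the procollagen proteinase Adamts2 (-6.00), and the cyclophilin gene Ppib was at -0.94. P3h2 thus stood at 133 CPM in mural-like, 13.7 in endothelial-like and 3.42 in fibroblast-like cells. From endothelial-like to mural-like cells, 8 of 26 were lower in the former, led by Loxl2 (-4.30), Loxl3 (-4.11) and Pcolce (-3.73), and Tll1 was higher (2.88; all genes 8.38% lower and 7.04% higher), while Serpinh1 was at -0.81.

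In macrophage-like against T-cell-like cells 5 of 22 processing genes were higher, led by Plod1 (2.71), Colgalt1 (2.56) and Crtap (2.33), and 3 were lower, Plod2 (-2.75), P4ha2 (-2.07) and Loxl2 (-1.62), with P4hb at 0.88. Over all genes 8.81% were higher and 11.4% lower, so the share of lower processing genes was near that of all genes. The states differed in few of them. Dpp4-progenitor-like cells had Pcolce2 higher (1098 against 427 CPM, 1.36) and Pcolce (-2.71) and Plod1 (-1.69) lower, of 27 (all genes 2.09% higher and 3.56% lower), with Serpinh1 at -0.50. F3-fibroblast-like cells had Adamts14 (-2.19) and Loxl2 (-1.47) lower, of 27 (all genes 2.09% lower), with Serpinh1 at -0.42. In preadipocyte-like, inflammatory-fibroblast-like and activated-fibroblast-like cells none of 27, 26 and 28 passed, and Serpinh1 was at 0.44, -0.17 and 0.47.

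A list of 9 genes codes for collagen receptors. The integrin alpha-1 gene Itga1 was at 1408 CPM in mural-like, 670 CPM in endothelial-like and 17.9 CPM in fibroblast-like cells. Itga11, a receptor subunit for fibrillar collagen, was at 70.9 CPM in fibroblast-like cells and 2.65 CPM in mural-like cells. Of the discoidin domain receptors, Ddr2 was at 462 CPM in fibroblast-like, 348 in mural-like and 17.3 in endothelial-like cells, and within the fibroblast-like cells it was higher in the Dpp4-progenitor-like state (951 against 401 CPM, 1.24). Mrc2, an endocytic collagen receptor, was at 225 CPM in the fibroblast-like and 1.41 CPM in the macrophage-like class. Lair1, an inhibitory receptor of leukocytes, was at 215 CPM in macrophage-like, 22.8 CPM in T-cell-like and 4.78 CPM in fibroblast-like cells.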

How the data were processed

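The deposited table holds whole-number counts per gene and cell; the sources used here do not say whether these are reads or molecules. The authors named each cell by hashtag or as a doublet in the cell name, and the main analysis used those names, leaving out 367 doublets of 15741 cells. The deposited hashtag counts served in an alternative that kept 11281 cells with at least 10 tags and 75% from 1 hashtag. The build GRCm38 and the tools Bowtie2 2.4.2, cutadapt 3.4, R 4.1.2 and R 3.6.3 are listed, without their roles, in the submitters' processing notes.

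Cells with at least 200 genes and at most 25% mitochondrial counts were kept (15192). With scanpy 1.11.5, counts were scaled to 10000 per cell, and 2000 variable genes other than collagen chains, processing genes and receptors gave 30 components, 20 neighbours and Leiden clusters (resolution 1.0). A cluster was named from at least 3 markers, and sub-clusters led by another class were left out; no doublet caller was run. Sums of counts per group gave CPM (pseudocount 1), with exact 95% Poisson and binomial intervals that cover counting error only. The code was tested on simulated data.

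Members, gene lists and markers were chosen with earlier results of these data known. Chains at 5 CPM or more in either group were named with their log2 ratio, beyond 20 the 10 largest each way. For processing genes, up to 3 called each way and the uncalled gene with the highest level were named; receptor genes were described after their values were seen. Alternatives were the tag rule, mixed sub-clusters kept, other pseudocounts, level filter, resolutions, a mean over cells, values 1 to 4 set to 0, the 5% deepest cells left out and each hashtag left out.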

Additional observations from a re-analysis of the deposited data

How the results depend on the processing

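Leaving aside the level filter, which cannot move a ratio, 3418 chain ratios were recomputed. No called ratio changed sign, 76 values of uncalled ones did, with 22 at resolution 2.0 and 13 under the tag rule, and 594 moved by more than 1 SD over hashtags. Of these ratios, 94 of 194 moved that far under the tag rule and 117 of 248 with mixed sub-clusters kept. Values without a hashtag are judged against the SD over the same hashtags, so they could hardly move that far and say little about stability. Of 266 counts of calls and shares, 219 stayed within 1.5 times (counts) or 1 SD over hashtags (shares). The cause of the other 47 was not tested. Leaving out a hashtag also drops a condition of the rule of size, so counts of calls can hardly fall by it. The 3 calls between macrophage-like and T-cell-like cells became 1 with a pseudocount of 5 CPM, with a mean over cells and with values 1 to 4 set to 0, and 4 to 5 leaving out a hashtag (5 without A0309). The 1 preadipocyte-like call became 2 under the tag rule, with a pseudocount of 0.1 CPM, at resolution 2.0 and, chosen after seeing the data, without the shallow sub-cluster, 3 without the deepest 5% of cells, 4 with mixed sub-clusters kept and 5 at resolution 0.5, and 1 to 2 leaving out a hashtag (2 without A0309 or A0311). The 1 inflammatory-fibroblast-like call became 2 under the tag rule and 3 at resolution 0.5. The 9 F3-fibroblast-like calls became 16 at resolution 0.5, and the 3 activated-fibroblast-like calls became 1 with a pseudocount of 5 CPM and with values 1 to 4 set to 0. Under the tag rule F3-fibroblast-like (18 cells) and activated-fibroblast-like (0 cells) gave no value.

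With values 1 to 4 set to 0 the collagen share was 4.52% in fibroblast-like, 2.52% in mural-like, 0.591% in endothelial-like, 0.00574% in macrophage-like, 0.0158% in T-cell-like, 2.38% in Dpp4-progenitor-like, 6.70% in preadipocyte-like, 3.70% in inflammatory-fibroblast-like, 2.52% in F3-fibroblast-like and 5.81% in activated-fibroblast-like cells. With tag-rule cells clustered anew, which changes both the cells and the groups, it was 0.815% in mural-like, 0.447% in endothelial-like and 2.50% in Dpp4-progenitor-like cells; in the main groups, cells passing the rule held 1.91%, 0.455% and 1.86%. With mixed sub-clusters kept it was 3.45% in fibroblast-like, 0.395% in endothelial-like and 0.0151% in macrophage-like cells. At resolution 0.5 it was 0.487% in endothelial-like, 2.54% in Dpp4-progenitor-like and 4.20% in activated-fibroblast-like cells, and at 2.0 it was 0.354% in endothelial-like, 0.0120% in macrophage-like, 2.70% in inflammatory-fibroblast-like and 3.597% in activated-fibroblast-like cells. As a mean over cells it was 0.414% in endothelial-like, 0.0151% in macrophage-like, 0.0351% in T-cell-like and 2.84% in inflammatory-fibroblast-like cells, and without the deepest 5% it was 0.414% in endothelial-like and 0.0131% in macrophage-like cells. No paired analysis was possible because the 2 libraries are 1 pool and no comparison between samples was made.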
